A study of Coryphaena hippurus with 21 samples.

Results

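The miR-30 family was described in whole larvae of mahi-mahi (Coryphaena hippurus), a fast-growing open-ocean fish, sampled at 48 hours post fertilization (hpf) after exposure to Deepwater Horizon oil. Its members were all miRNA names with the family number 30, whatever the species prefix, letter or arm, and they numbered 12 of the 329 names in the 6 deposited count tables. They were ola-miR-30a-5p, gga-miR-30e-5p, 4 miR-30c names (aca-miR-30c-5p, fru-miR-30c, oar-miR-30c and tni-miR-30c), 5 miR-30b names (age-miR-30b, ggo-miR-30b, mml-miR-30b-5p, oar-miR-30b and ppa-miR-30b) and oar-miR-30d. The prefixes stand for other animals, such as ola for medaka and gga for chicken, and no name belongs to mahi-mahi. By number of names the family ranked 4 among 125 family numbers.

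Embryos were placed, freshly fertilized, in seawater that carried a HEWAF, a water-accommodated fraction made by mixing oil into water at high energy, and the water was not renewed. The slick oil groups received 0.5% (L), 1% (M) and 2% (H) HEWAF, the source oil groups received 0.125% (L), 0.25% (M) and 0.5% (H), and the control group received 0%. With 3 libraries a group there were 21 libraries in 7 groups, and all groups shared the same stage, temperature and static design. The sample titles of the source groups carry the word mass, and were taken to mean source oil, the other oil that the study names. RNA was isolated from pooled larvae, so each library averages over animals, and no label ties libraries to separate beakers. The p-values below therefore measure the spread between these libraries.

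Members of the miR-30 family share the seed, the short stretch at the start of a miRNA that pairs with target messenger RNAs, and differ mainly outside it. In zebrafish, miR-30 is known to act on the Hedgehog receptor partner Smoothened in early muscle and on the Notch ligand Dll4 in sprouting vessels. In Xenopus it is known to act in the larval kidney, and in mammals it is one of the abundant miRNAs of heart muscle. The letters mark related mature forms, of which miR-30a and miR-30e are nearly identical in sequence.

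The exposed libraries held 3157670 to 8736995 counts over the names listed for them, and the controls held 7442565 to 8539378 counts over the names of any table. Muscle families (miR-1, miR-133, miR-206 and miR-499) and neural families (miR-9 and miR-124) were counted in every group, as the label whole larva implies. A principal component analysis used the 99 names above 0 in every library, and its first component (51.1% of the variance) put 7 libraries on one side, with the lowest of them at 5.01 and the highest of the other 14 at -2.06. All libraries of source M and source H were among these 7, together with source L library L3. Every source M and source H value therefore comes from a library that stood apart, and the oil and this division cannot be told apart there. In whole larvae, fewer cells that make a miRNA and less miRNA per cell cannot be told apart either.

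Levels across groups are given as scaled CPM, a CPM value computed on the TMM-scaled sum of those 99 names in place of the library total. TMM is a library factor that makes most names agree between libraries. In control larvae the miR-30 total was 15430, 12241 and 13644 scaled CPM in libraries C4, C5 and C6. The a and e names took 9305, 4912 and 7698 of it and the c names 5354, 6407 and 5125, so these led in different libraries and their ranges overlapped. The b names, at 312, 476 and 428.9 scaled CPM, and oar-miR-30d, at 458, 446 and 391, lay far below and overlapped with each other. The a and e names made up 40.1 to 60.3% of the control total, the c names 34.7 to 52.3%, the b names 2.02 to 3.89% and oar-miR-30d 2.87 to 3.64%.

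The counts of a form stood under different names in different libraries. In control C4 the c counts stood under oar-miR-30c (17170) and tni-miR-30c (10243). In control C5 they stood under aca-miR-30c-5p (25018) and fru-miR-30c (10688), and in control C6 under aca-miR-30c-5p (18328) and tni-miR-30c (9467). Each control thus had 1 larger and 1 smaller c name, of like size in all 3 libraries. No control had both aca-miR-30c-5p and oar-miR-30c above 0, or both fru-miR-30c and tni-miR-30c. No exposure has both names of either pair listed, so the exposed libraries could not show them together. The b counts behaved likewise, at 1598 under oar-miR-30b in C4, 2654 under mml-miR-30b-5p in C5 and 2326 under ggo-miR-30b in C6. No control had more than 1 of the 5 b names above 0. Each exposure has only 1 b name listed, so the exposed libraries could not show more. A b name was above 0 in 12 of 21 libraries.

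**Figure D1:**
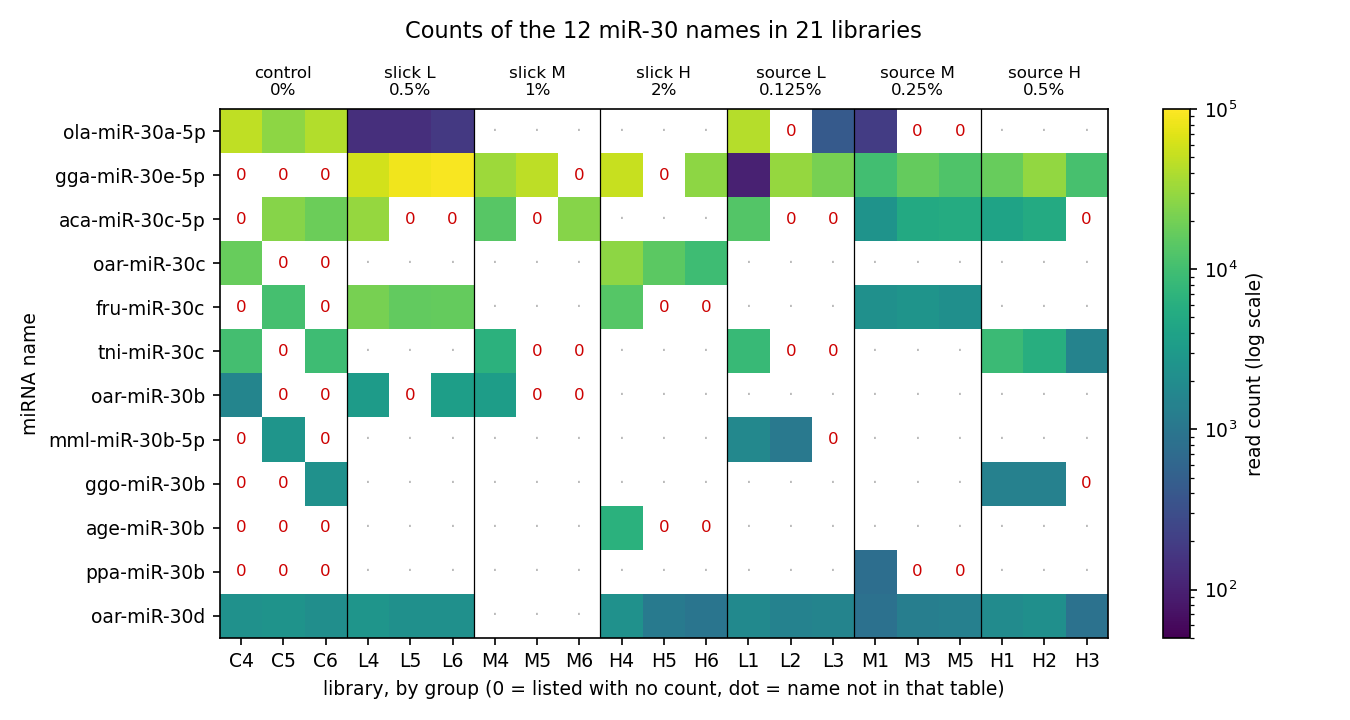
Read counts (colour, log scale) of the 12 miR-30 names (rows) in the 21 libraries (columns, by group). A red 0 marks a name listed in the group's table with no count in that library and a dot a name not in that table; the row of oar-miR-30d is filled in all 18 libraries whose table lists it, whereas ola-miR-30a-5p and gga-miR-30e-5p exchange places between libraries.

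Every name in a table was above 0 in the first exposed library of that table, and no table held the whole family. In all, 47 of the 132 listed pairs of a miR-30 name and a library were 0. Of the control counts of the family, 65.3, 96.1 and 84.1% (C4, C5 and C6) were listed in the table of slick L, 76.2, 84.3 and 96.9% in that of source L, and 63.3, 96.1 and 84.1% in that of source M. The other tables lacked ola-miR-30a-5p and held far less, with 15, 36.7 and 37.6% in the slick M table, 24.7, 19.3 and 2.87% in the slick H table and 15.9, 40.3 and 43.6% in the source H table. The median family had 100% of its control counts listed in each table, and 7 of 114 families had a lower share than miR-30 in the slick H table. Since the control libraries are the same in all tables, their counts could be completed from the other tables, whereas a form counted in another exposed library under a name that its table lacks would not be seen. An exposed total is therefore a lower limit wherever a form is at 0 or ola-miR-30a-5p is not listed.

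The name gga-miR-30e-5p was at 0 in all 3 controls and above 0 in 16 of 18 exposed libraries. In slick L it held 59171, 84270 and 92226 counts in L4, L5 and L6, and ola-miR-30a-5p held between 138 and 175 in each, against 47640, 27374 and 41746 counts of ola-miR-30a-5p in controls C4, C5 and C6. The exposed libraries were high in the e name and almost empty of the a name, and the controls were the reverse, with no overlap for either. In the edgeR test with Benjamini-Hochberg adjustment, ola-miR-30a-5p fell by 8.16 on the log2 scale (SE 0.40, adjusted p = 0.00101). The name gga-miR-30e-5p passed the filter on low counts only through the exposed libraries and so had to differ, and its calls, here and in the other exposures, are counted below but support nothing. Set against a floor of 3 counts over the 3 controls, the slick L level under the name gga-miR-30e-5p was about 68121 times that floor. This ratio describes the name alone and bounds no change of a form, since the counts of a form can stand under another name. Both ola-miR-30a-5p and gga-miR-30e-5p were called, 2 of 6 members tested in slick L, where 14.5% of all 159 names were called. The authors' deposited table gives ola-miR-30a-5p scaled means of 143.5 in slick L and 40745 in control, a log2 fold change of -7.78 and an adjusted p of 6.65e-160, and does not list gga-miR-30e-5p.

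The same exchange of names was seen within 1 group. In source L, library L1 held 43240 counts of ola-miR-30a-5p and 99 of gga-miR-30e-5p, whereas L2 held 0 and 30286 and L3 held 434 and 21290. Library L1 was thus high in the name that was high in the controls, and L2 and L3 in the name that was high in slick L, at 1 dose of 1 oil. The source L comparison called 0 of 6 members and 0% of all 152 names by edgeR, with 1 member (gga-miR-30e-5p) at an unadjusted p under 0.05, and DESeq2 called that name. Over the 6 libraries in which both names were above 0, the lesser of the 2 held at most 2% of their sum. Of the 18 exposed libraries, 15 had gga-miR-30e-5p as the greater and 1 had ola-miR-30a-5p, and 2 had neither. In slick M, slick H and source H ola-miR-30a-5p is not listed, so it could not be seen there. The 2 libraries with neither belong to slick M and slick H.

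In source M gga-miR-30e-5p held 9932, 16669 and 12420 counts in M1, M3 and M5, about 16107 times the floor for this name alone. There ola-miR-30a-5p held 193, 0 and 0 counts, against 47640, 27374 and 41746 in the controls (adjusted p = 0.142 in edgeR and 0.00422 in DESeq2). In source H gga-miR-30e-5p held 17119, 29106 and 10949 counts in H1, H2 and H3, about 21206 times the floor for this name alone. It was the 1 of 5 members called in source M, where 24% of 150 names were called, and the 1 of 5 in source H, where 9.38% of 160 names were called. In slick M gga-miR-30e-5p held 32566, 46434 and 0 counts, and in slick H 52871, 0 and 27574, and the filter on low counts left it out of both tests. There edgeR called 0 of 2 members tested in slick M (1.26% of 159 names) and 0 of 2 in slick H (10.1% of 158 names), with 0 at an unadjusted p under 0.05 in each, and DESeq2 called gga-miR-30e-5p in both.

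Because the a and e names exchanged places, their sum was followed through the groups as a description, chosen after the counts were seen and not tested. The sum was 8402, 12386 and 15694 scaled CPM in slick L libraries L4, L5 and L6, against 9305, 4912 and 7698 in controls C4, C5 and C6. L5 and L6 lay above every control and L4 among them. Slick M libraries M4 and M5 held 7068 and 7404.5 scaled CPM, and slick H libraries H4 and H6 held 8676 and 9963, while M6 and H5 showed neither name. For slick M, slick H and source H only the e name is listed, so counts under the a name would not be seen. Source L libraries L1 and L2 held 9345 and 9194 scaled CPM and L3 held 5165. Source M held 3950, 3452 and 3536.5 scaled CPM in M1, M3 and M5, all below the lowest control. On the same scale 31.7% of 120 family totals lay wholly below control in source M. The separation is therefore not read as a result about the a and e names. Source H held 3689, 5392 and 5519 in H1, H2 and H3, of which H2 and H3 overlapped with control C5.

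The c names were summed in the same way. In the slick groups the sum was 7149, 2392 and 2802 scaled CPM in L4, L5 and L6 and 6767, 4352 and 3458 in H4, H5 and H6, against 5354, 6407 and 5125 in the controls. The first library of each of these groups showed both a larger and a smaller c name, and the others showed 1. Source M held 1843, 1562 and 2141 scaled CPM in M1, M3 and M5, with 2 c names above 0 in all 3, and lay below every control. Source H held 2801, 2043 and 746 in H1, H2 and H3, also below every control, with 1 c name in H3. In slick M the sum was 4403, 0 and 3597.5 in M4, M5 and M6, and in source L it was 4645, 0 and 0 in L1, L2 and L3. Both of these groups lay below every control too. Of the c names only aca-miR-30c-5p and tni-miR-30c are listed for them, so c counts under other names would not be seen. On this scale 31.7% of 120 family totals lay wholly below control in source M and 32.8% of 119 in source H. The shares for slick M and source L are not given. The separations are therefore not read as a result about the c names. No single c name was called by edgeR or DESeq2 in any exposure, and each was at 0 in at least 1 library of every comparison with control.

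The b names could be read in 12 libraries. They reached 464 and 609 scaled CPM in slick L libraries L4 and L6, 755 in slick M library M4 and 1039 in slick H library H4, against 312, 476 and 428.9 in the controls. In the source groups they held 379 and 327 in L1 and L2, 307 in source M library M1, and 302 and 258 in H1 and H2. All 3 of the readable values at the middle and high source doses lay below the lowest control, with 307 and 302 close to it (312). The libraries M3, M5 and H3 of these doses showed no b name. The share of all names placed in this way is not given, so these values are not read as a result about the b names. A b name was tested in slick L, source L and source H only, 1 in each, and none was called by edgeR there.

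The miR-30d form stood under a single name. The name oar-miR-30d was above 0 in all 18 libraries whose tables list it, with 859 to 2655 counts, and the slick M table lists no miR-30d name. It held 376, 334 and 384 scaled CPM in slick L libraries L4, L5 and L6, and 382, 330 and 344 in slick H libraries H4, H5 and H6, against 458, 446 and 391 in controls C4, C5 and C6. In the source groups it held 400, 442 and 370 in L1, L2 and L3, 335, 267 and 393 in M1, M3 and M5, and 417, 402 and 437 in H1, H2 and H3. The slick L and slick H libraries lay below the lowest control on this scale and overlapped with controls when scaled within their own tables, and the source groups overlapped with control on this scale. Source L lay below the controls when scaled within its table, at 281 to 295 CPM in source L, against 301 to 313 CPM in control. The share of all names that lay wholly below control is not given beside these values. They are therefore not read as a result about oar-miR-30d.

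The edgeR test called oar-miR-30d in 0 of 5 exposures, with 0 at an unadjusted p under 0.05, and DESeq2 called it in 0 with 1 unadjusted p under 0.05. The log2 fold change against control was -0.11 in slick L (approximate 95% interval -0.29 to 0.07) and -0.13 in slick H (-0.38 to 0.13). For source oil it was -0.08 at the low dose (-0.36 to 0.20), -0.35 at the middle dose (-0.75 to 0.04) and 0.15 at the high dose (-0.22 to 0.52). The sign of the source H value turned with total-count scaling (-0.28). The authors' deposited tables list oar-miR-30d in slick L (log2 fold change -0.10), slick H (-0.13), source L (-0.04) and source M (-0.39), with adjusted p of 0.117 to 0.873.

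**Figure D2:**
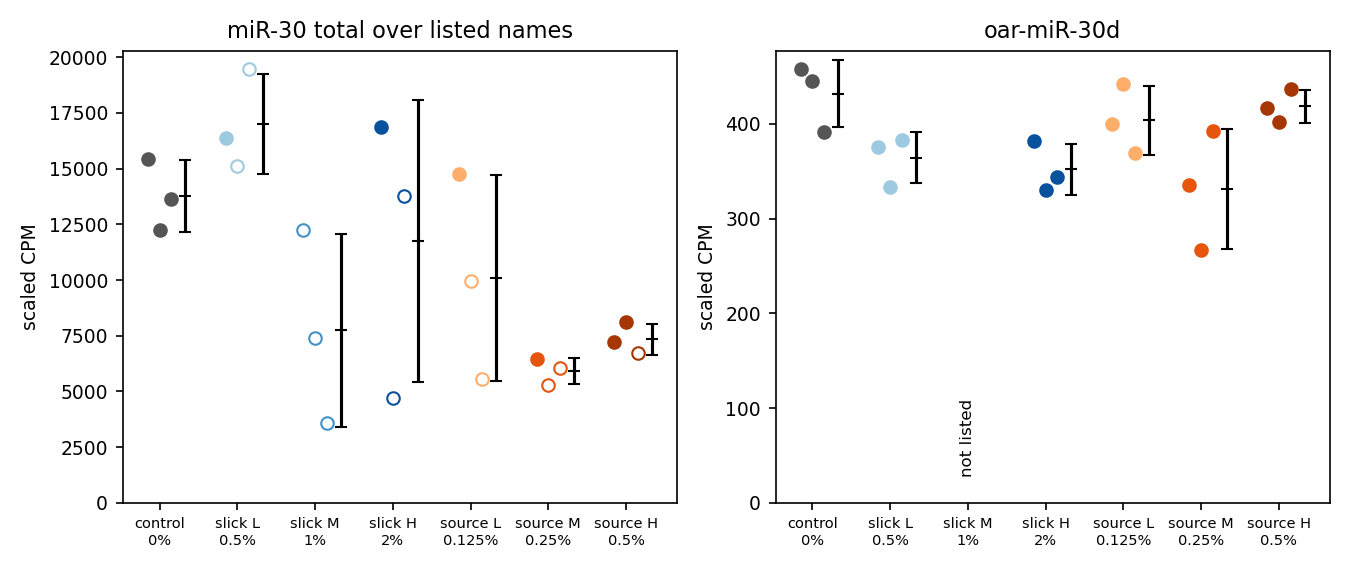
Scaled CPM of the miR-30 total over listed names (left) and of oar-miR-30d (right) in each library, with the mean and SD of the 3 libraries of a group beside the points. Open points on the left are libraries in which a or e, b, d or a second c name was not seen, so that the value is a lower limit. The filled points of slick H and source H are lower limits too, since ola-miR-30a-5p is not listed there. Source M and source H totals lie at 5281 to 8095, below the lowest control at 12241. The slick M totals also lie below it, but all of them are lower limits, and this is not read as a result. The oar-miR-30d values of source M and source H overlap with control.

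The family total over every listed name, with controls taken from all tables, lay below control in every library of source M and source H. The slick M totals, which are lower limits, are described further below. In source M it was 6435, 5281 and 6070 scaled CPM in M1, M3 and M5, against 15430, 12241 and 13644 in controls C4, C5 and C6. All exposed libraries lay below all controls, as did 31.7% of the 120 family totals compared. All 3 source M libraries showed a or e, d and 2 c names, and only the b form, at most 3.89% of a control total, was missing from M3 and M5. Summed over the names of the source M table, the total fell by 1.01 on the log2 scale (SE 0.15, adjusted p = 0.00884) in the edgeR test, where 20.2% of 94 family totals were called lower. With controls completed from any table the log2 fold change was -1.06 (SE 0.18, adjusted p = 0.0175), where 15% of 107 totals were called lower. The first call was lost without control C6 (adjusted p = 0.067) and with total-count scaling (-1.12, 0.102). The second was lost without M3 (0.0639), C4 (0.067) or C6 (0.0648) and with total-count scaling (-1.16, 0.0702). DESeq2 called both (3.42e-07 and 3.97e-11).

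In source H the total was 7208.5, 8095 and 6702 scaled CPM in H1, H2 and H3, again below every control, as was the case for 32.8% of 119 family totals. The name ola-miR-30a-5p is not listed for source H, and H3 showed no b name and 1 c name. These totals are thus lower limits set against completed controls. Summed over the names of the source H table, which lists 15.9 to 43.6% of the control counts of the family, the log2 fold change was 0.76 (SE 0.37, adjusted p = 0.223). With completed controls it was -0.56 (SE 0.16, approximate 95% interval -0.87 to -0.25, adjusted p = 0.0582), where 7.55% of 106 totals were called lower, so the sign differed with the set of names summed. The completed value passed the threshold with total-count scaling (-1.0, adjusted p = 0.0165), with median-ratio factors (-0.77, 0.036) and in DESeq2 (-0.80, 4.49e-05). Total-count scaling moved the median of all family totals by -0.42 in source H, by -0.21 in source M, by -0.28 in source L and by 0.16, 0.18 and 0.10 in slick L, M and H.

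**Figure D3:**
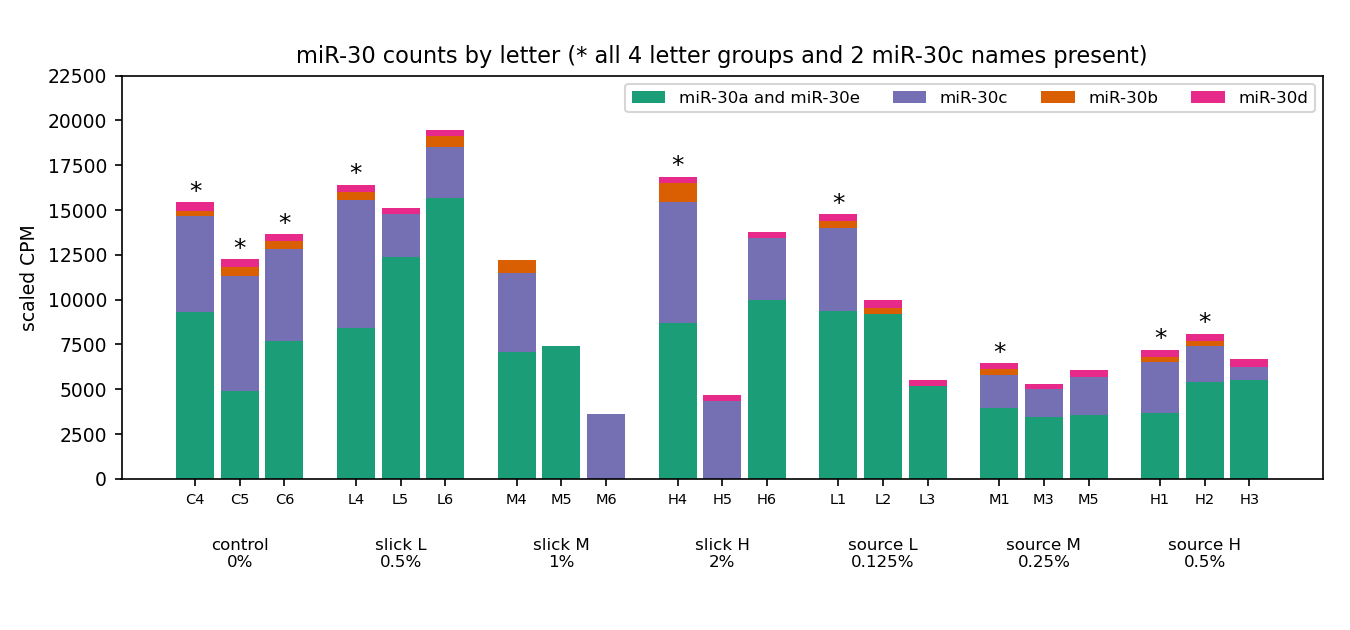
Scaled CPM (bar height) of the miR-30 letters stacked in each of the 21 libraries, by group. An asterisk marks the 9 libraries in which a or e, b, d and 2 c names were all above 0. Among these the bars of source M1, H1 and H2 end at 6435 to 8095 and the other 6 at 12241 to 16865. The bars of slick H and source H are lower limits even with an asterisk, since ola-miR-30a-5p is not listed there.

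In source L the total was 14770, 9964 and 5534 scaled CPM in L1, L2 and L3, so that L1 lay inside the control range and L3 inside the source M range. L2 and L3 showed no c name. The log2 fold change was -0.27 (SE 0.38, adjusted p = 0.801) over the names of the table and -0.25 (SE 0.37, adjusted p = 0.757) on completed controls. The second value was 0.02 without L3, the library of this group that stood apart on the first component.

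In slick L the total was 16391, 15111 and 19488 scaled CPM in L4, L5 and L6, against 15430, 12241 and 13644 in the controls, with L5 inside the control range. With only the names of the slick L table it was called higher (log2 fold change 0.68, SE 0.15, adjusted p = 0.0433, where 9.8% of 102 totals were called higher). With the control counts completed from the other tables it was 0.42 (SE 0.16, approximate 95% interval 0.11 to 0.74, adjusted p = 0.178), in a fit that called 7.55% of totals higher. L5 and L6 showed 1 c name each, so their totals are lower limits. The call in the table itself was lost when any 1 of the 6 libraries was left out (adjusted p = 0.0783 to 0.16), and on completed controls it passed in DESeq2 (0.0091) and with total-count scaling (0.0371).

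In slick M and slick H the forms seen differed between libraries. The slick M libraries held 12226, 7404.5 and 3597.5 scaled CPM, with only a c name in M6 and only gga-miR-30e-5p in M5. All of them lay below the lowest control (12241), M4 only just. These totals are lower limits, and the share of family totals wholly below control in slick M is not given. The separation is therefore not read as a result about the family. The slick H libraries held 16865, 4682 and 13766, with neither a nor e in H5. The log2 fold changes on completed controls were -0.70 (adjusted p = 0.509) and -0.10 (adjusted p = 0.953, and 0.27 without H5), and with the names of each table alone 1.03 (adjusted p = 0.472) and 2.48 (adjusted p = 0.173). In the fits of the names of each table, 14.7, 0.99 and 6.06% of family totals were called either way for slick L, M and H, and 0, 29.8 and 24.2% for source L, M and H.

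**Figure D4:**
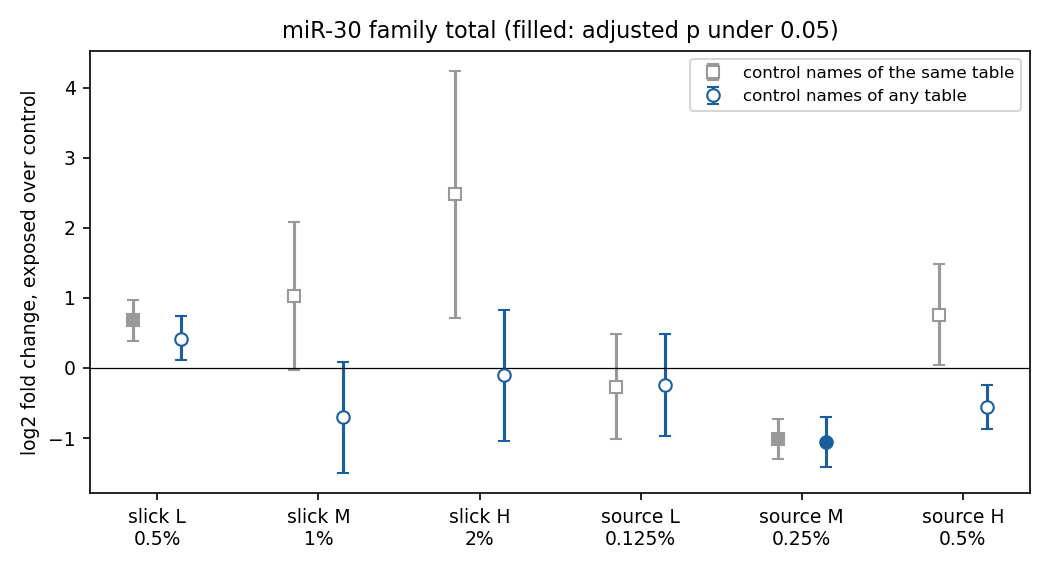
Log2 fold change of the miR-30 total, exposed over control, for each exposure with its approximate 95% interval. Grey squares use the control names of the same table and blue circles the control names of any table, and filled symbols have an adjusted p under 0.05; in slick M, slick H and source H the 2 values differ in sign, and in source M they are -1.01 and -1.06.

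In 9 libraries a or e, b, d and 2 c names were all present, as in each control. Of the exposed ones, all but source H2 were the first library of their exposure, in which every listed name was above 0. Their completeness thus follows in part from how names were listed. Slick L4, slick H4 and source L1 had totals of 16391, 16865 and 14770 scaled CPM, and source M1, H1 and H2 had 6435, 7208.5 and 8095, against 12241 to 15430 in the 3 controls. The share of a form in the total differed among these libraries. Within these libraries oar-miR-30d made up 5.21% of the family in source M1, 5.78% in H1 and 4.97% in H2, and 2.29, 2.27 and 2.71% in slick L4, slick H4 and source L1, against 2.87 to 3.64% in the controls. This share does not depend on library scaling. It was not tested, rests on single libraries, and does not show whether any form changed, or which. For slick H and source H ola-miR-30a-5p is not listed. The totals of slick H4, source H1 and source H2 are thus lower limits, and their oar-miR-30d shares upper limits.

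Against dose, the completed family total had a slope of -1.28 log2 units per percent of source HEWAF (SE 0.69, adjusted p = 0.251 over 12 libraries) and -0.22 per percent of slick HEWAF (SE 0.25, adjusted p = 0.775). Neither was called, in fits that called 6.54% and 4.55% of all totals. These fits were added after seeing the data and set unlisted names of exposed libraries to 0. The planned totals summed only names listed at all 3 doses of an oil. Their edgeR slopes were 1.68 for source (SE 1.21, adjusted p = 0.334) and 0.54 for slick (SE 2.09, adjusted p = 0.879). Neither planned slope was called, and both signs differed with the set of names summed. The name oar-miR-30d had a slope of -0.34 per percent of source HEWAF (SE 0.45, adjusted p = 0.609). Only gga-miR-30e-5p was listed in all 3 slick tables, and its slope was 0.54 (SE 2.14, adjusted p = 0.953). Over single names edgeR called 0 of 3 members in the source fit (16.5% of 121 names) and 0 of 1 in the slick fit (5.47% of 128 names), with 0 at an unadjusted p under 0.05, and DESeq2 called 0 in both.

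The oils were compared directly at the same nominal 0.5%, slick L with source H. The family total over names listed in both tables (aca-miR-30c-5p, gga-miR-30e-5p and oar-miR-30d) was higher in slick L than in source H, with a log2 fold change of 1.30 (SE 0.18, adjusted p = 0.0114, where 5.38% of 93 totals were called higher). Over all listed names the value was 1.23 (SE 0.18, adjusted p = 0.0327, where 3.85% of 104 totals were called higher). The scaled CPM were 16391, 15111 and 19488 in slick L, against 7208.5, 8095 and 6702 in source H, and did not overlap. The share of all family totals separated in this way is not given, so the separation is not read as support for the call. The source H totals are lower limits, since ola-miR-30a-5p is not listed there. The first call was lost without slick L5 (adjusted p = 0.094), slick L6 (0.0822) or source H2 (0.111). The second was lost without any of slick L4, L5 and L6 or source H1 and H2 (0.0544 to 0.112). For single names edgeR called 0 of 3 members, where 11.5% of 139 names were called, with 1 (gga-miR-30e-5p) at an unadjusted p under 0.05, and DESeq2 called gga-miR-30e-5p (1.30) and oar-miR-30d (-0.21, adjusted p = 0.0496). The edgeR value of gga-miR-30e-5p was 1.39 (SE 0.34, adjusted p = 0.0644) and that of oar-miR-30d -0.13 (approximate 95% interval -0.56 to 0.30). The equal nominal dilution does not show equal oil in the water.

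The listed names of endothelial miR-126 summed to 12538 to 31699 scaled CPM in slick L, 6547 to 28836 in slick M and 16247 to 25903 in slick H, against 6835 to 8476 in control. At the low source dose the sum was 4231 to 19650, at the middle dose 2505 to 2790 and at the high dose 964 to 5417. On the completed miR-30 total, slick L overlapped with control, with a log2 fold change of 0.42 that was not called (edgeR adjusted p = 0.178). All slick M, source M and source H libraries lay below all controls on that total. The log2 fold change of that total was -0.70 in slick M and -0.10 in slick H, where ola-miR-30a-5p is not listed and the totals are lower limits. The miR-126 and miR-30 totals had a Pearson r of 0.47 over the log2 CPM of 21 libraries and 0.72 over the 7 group means. The 4 muscle families summed to 349021 to 433109 scaled CPM in slick L and 249255 to 982886 in source M, and the source H libraries held 498811 to 685371, against 319002 to 473924 in control. The 2 neural families summed to 245992 to 327375 in slick L and 290298 to 343566 in source M, and the source H libraries held 221200 to 263655, against 360452 to 447426 in control. The red blood cell miRNA miR-144 was at 188 to 265 scaled CPM in slick L, 242 to 306 in slick M and 158 to 191 in slick H. It was at 39 to 269 in source L and 0 to 148 in source H, against 450 to 508 in control, and the source M table does not list it. Wholly below control on this scale were 31.7% of 120 family totals in source M and 32.8% of 119 in source H. For the other groups, and for totals wholly above control, the shares are not given. Separation from control is therefore not read as a result about these families. The part of these cell types in the miR-30 values was not tested.

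Among family totals counted in all 21 libraries, 3 had the pattern most like the miR-30 total over log2 CPM. These were miR-130 (Pearson r 0.68), miR-27 (0.68) and miR-430 (0.66), among 75 families with miR-30 included. The points share libraries, depth and the unseen names, and the values are a description.

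Lists of miRNAs from processes in which miR-30 is known to act were set beside it. They are a description, since the lists were chosen with earlier results of these data known. Of 12 endothelial names tested in slick L, 4 rose and 0 fell, where 14.5% of all names were called, and of 14 in slick H, 4 rose and 0 fell, where 10.1% were called. They were the same names in both, with log2 fold changes of 1.81 and 2.09 for oar-miR-23b and 1.79 and 1.64 for tgu-miR-126-5p. The others were ssa-miR-23b-5p (1.86 and 1.63) and dre-miR-23a-3-5p (1.44 and 1.69), which share the family number 23 with oar-miR-23b. In source M 1 of 12 endothelial names fell (tgu-miR-126-5p, -1.53), where 24% of all names were called, and in slick M, source L and source H none passed. The median log2 fold change of the list was 0.20 in slick L (0.07 over all names), 0.37 in slick M (0.05) and 0.25 in slick H (0.06). For source L, M and H it was 0.41 (-0.01), 0.55 (0.32) and 0.68 (0.17). Of the muscle names, ggo-miR-499a, encoded in a myosin gene in vertebrates, was the member that fell in slick L (-1.33, 1 of 6 tested), slick H (-1.51, 1 of 6) and source M (-0.95, 1 of 4), beside the same shares of all names. No epithelial name with counts in the controls was called in any exposure, of 4 or 5 tested in each. The epithelial name ipu-miR-203b, like gga-miR-30e-5p, was at 0 in all controls in the slick M and source M tables and passed the filter only through the exposed libraries, so its calls there support nothing.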

How the data were processed

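Small RNA libraries of whole larvae were counted per mature miRNA name. Per the file headers, the deposited tables hold whole-number read counts for 1 exposure and the same 3 controls each; aligner, counter and genome build: not given in the sources used here. The authors also deposited scaled group means (a normalized signal), log2 fold changes, p-values and adjusted p-values; the submitters' processing notes name DESeq2, without a role. No deposited column of per-sample values was left out.

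Names on more than 1 line (17 extra lines) were reduced to the highest count, and 6 blank control cells were filled from another table, since 0 of 2553 repeated control cells differed. Since column numbers differ from those in the titles, columns were assigned to groups only. Counts were tested with edgeR 4.0.16 in R 4.3.3 (TMM, filterByExpr with minimum count 10 and total 15, glmQLFit, glmQLFTest, Benjamini-Hochberg over all names or family totals, threshold 0.05). DESeq2 1.42.0 was an alternative. Each standard error is |log2 fold change| divided by the root of F, and intervals are 1.96 SE to each side. For family totals all names of 1 family number were summed, with equal counts taken once. Totals with controls completed from any table, and unlisted names of exposed libraries at 0, are given beside these; their slopes, comparison of oils and further settings were added after seeing the data, as was the sum by letter. The code was tested on simulated data. All members are named, outside the family the 3 most similar totals and called names of 3 lists. The members and lists were chosen with earlier results of these data known.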

Additional observations from a re-analysis of the deposited data

Results flagged for a closer look

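The miR-30 family total differed between the oils at the same nominal 0.5%, with a log2 fold change of 1.30 (SE 0.18, edgeR adjusted p = 0.0114) of slick L over source H in a direct test. That total sums only aca-miR-30c-5p, gga-miR-30e-5p and oar-miR-30d. The call was lost without slick L5 (edgeR adjusted p = 0.094), slick L6 (0.0822) or source H2 (0.111). Over all listed names, all 3 slick L libraries lay above all 3 source H libraries, whose totals are lower limits. The share of family totals separated in this way is not given, so the separation is not read as support for the call. The 3 source H libraries belong to the 7 that stood apart on the first component and no slick library does, so oil and this division cannot be told apart.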

How the results depend on the processing

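Exposed totals are lower limits where a name was not listed, and 3 libraries a group limit every test. Leaving out 1 library in turn, the miR-30 total ran from 0.53 to 0.74 in slick L, from -1.17 to -0.95 in source M and from 1.20 to 1.39 for slick L over source H. On completed controls the ranges were -0.34 to 0.27 (slick H), -0.58 to 0.02 (source L), -1.16 to -0.93 (source M) and 1.16 to 1.32 (slick L over source H). The miR-30d value ran from -0.52 to 0.10 for the source slope and from -0.24 to 0.01 for slick L over source H.

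The slick L total was 0.63 with median-ratio factors (adjusted p = 0.0857), 0.64 without a filter (0.07), 0.68 with the replicate block (0.123) and 0.42 on completed controls (0.178), and none of these was called. The completed slick L value was called with total counts (0.57) and in DESeq2 (0.49). On completed controls the sign turned in slick M (-0.70), slick H (-0.10) and source H (-0.56). The sign of the dose slope of the total also turned, from 1.68 to -1.28 for source and from 0.54 to -0.22 for slick. The slick H total was called in DESeq2 (2.46). With total counts the source M total was -1.12, or -1.16 on completed controls, and not called. The completed source H value was called with total counts (-1.0), median-ratio factors (-0.77) and DESeq2 (-0.80). Restricted to names above 0 in every library, the total was -4.22 in slick L, which keeps miR-30a and miR-30d only, and -0.25 in slick H and -0.38 in source M, which keep miR-30d only. In 1 fit over 21 libraries, which keeps only names listed in every table, it was 17.90 in slick H, 17.46 in source L, 17.11 in source M and 17.53 in source H; gga-miR-30e-5p, at 0 in control, sets these. The miR-30d sign turned with total counts in source H (-0.28) and for slick L over source H (0.19), and in DESeq2 for the source slope (0.01); the cause was not tested.

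Counts of calls over all names moved more. They were 23, 2, 16, 0, 36 and 15 in slick L, M and H and source L, M and H, and 57, 24, 45, 32, 77 and 68 in DESeq2. For family totals they were 15, 1, 6, 0 and 28 in slick L, M and H and source L and M, and 25, 8, 25, 4 and 46 in DESeq2. Names above 0 in every library gave 44, 5, 31, 61 and 55 names in slick L, M and H and source M and H, and 26, 3 and 25 totals in the slick groups. The fit over 21 libraries gave 6, 0, 4 and 47 names in slick L, slick M, source L and source H, and 4, 0, 14 and 3 totals in slick L, M, H and source L. Total counts gave 7 names and 11 totals in source M and 30 names in source H. Median-ratio factors gave 29 names in source H, no filter 14 in slick L, and completed controls 3 totals in slick M. Leaving out 1 library gave 9 to 21, 0 to 8, 1 to 22, 0 to 2, 11 to 50 and 0 to 36 names, and 2 to 15, 1 to 3, 0 to 9, 0 to 2, 6 to 36 and 1 to 23 totals, in the same order of groups.

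Slick columns and controls share the numbers 4 to 6, but same-numbered libraries did not all deviate together (correlations -0.46 to 0.38). The replicate block left 2, 0 and 0 names and 1 and 0 totals called, for slick L, M and H and for slick L and H. The ola-miR-30a-5p call in slick L was kept (-8.13, adjusted p = 0.0237). That of gga-miR-30e-5p was not (adjusted p = 0.183), though its fitted value, which rests on the prior count, was 19.17 with the block and 19.20 without it. No paired analysis was possible for source oil because its columns share at most 1 number with the controls (M5 and C5).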
